A study of Mus musculus with 8 samples.

Results

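The genes examined here were 37 mouse genes whose products resolve, prevent or process R-loops and G-quadruplexes (G4s), of 21951 protein-coding genes on the chromosomes of the peak lists. They were chosen by name, from what their products are known to do. Each gene was taken as GENCODE M21 places it in mm10, with 1 kb added at either end, and every peak that overlapped this stretch by at least 1 bp was recorded. The peaks came from DRIP-seq, in which the antibody S9.6 pulls RNA:DNA hybrids out of fragmented genomic DNA. All cells were mouse embryonic fibroblasts (MEFs) with floxed Rtel1 (Rtel1F/F) that also carried a lentiviral, doxycycline-inducible human RNaseH1 fused to GFP (WT RNH1-GFP), so that the transgene was present in the controls too. GFP adenovirus left Rtel1 in place, Cre-GFP adenovirus was used to delete it, and doxycycline (DOX) at 2 µg/ml was added 48 h after infection, or not (mock), for a further 48 h. This gave 4 conditions, GFP mock and GFP DOX, in which Rtel1 was kept, then Cre mock and Cre DOX, and values named for all 4 lists are in this order unless a list is named. Each condition had 1 DRIP library, made from pooled immunoprecipitations, and 1 input library for which no peaks were analysed here. With 1 library per condition no difference between conditions could be tested, and the values below describe these 4 libraries. The virus, the culture and the library cannot be told apart from the loss of Rtel1, nor the library from the effect of doxycycline.

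An R-loop is an RNA:DNA hybrid with a displaced strand of single-stranded DNA, and a G4 is a fold that guanine-rich single-stranded DNA can adopt. RNase H enzymes cut the RNA of the hybrid, helicases such as RTEL1, DHX9 and the Fanconi protein FANCM unwind hybrids or G4s, topoisomerases remove the supercoils that favour hybrids behind RNA polymerase, and RNA-binding proteins keep the nascent transcript away from its template. RTEL1 itself is best known as the helicase that dismantles telomeric loops and telomeric G4s. A DRIP peak at any of these genes describes a hybrid over the gene and is no measure of how much of its RNA or protein was made.

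The GFP lists held 87613 (mock) and 60219 (DOX) peaks, and the Cre lists 91097 (mock) and 105081 (DOX). The score deposited with each peak is its −log10 q-value times 10, and a top-decile peak scored at least 33, 28, 33 and 31 in these lists, in the same order. Because scores were not normalised between libraries, a peak was also given its score percentile, the share of peaks in its own list that scored no higher. The narrowest peaks of the lists were 106, 107, 132 and 213 bp wide, and the median width ran from 295 bp in GFP mock to 513 bp in Cre DOX. The number of reads behind the peaks is unknown. Of 8 fibroblast marker genes, 6, 5, 6 and 6 had a peak, and of 11 markers of other cell types 7, 4, 5 and 3 did, which says nothing of their expression, since peaks do not measure it.

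Rtel1, the gene targeted by Cre, lies on chr2:181319739-181356616 (plus strand) and had no peak in GFP mock and none in GFP DOX. In Cre mock it had 2 peaks, with scores of 14 and 21, and in Cre DOX it had 1 peak, with a score of 10. The score percentiles of these 3 peaks were 19.4, 63.1 and 5.58, so that none was in the top decile. The peaks lay 18208, 19143 and 29631 bp past the first start of the gene, at an intron and at internal start sites, and the Cre DOX peak overlapped neither of the Cre mock peaks. Peaks cannot show whether the floxed exons were removed. In protein-coding genes as a whole, 3.43% had a peak in both Cre lists and in neither GFP list, as Rtel1, Dna2 and Brca1 did.

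The sequences under the strongest promoter peaks are shown first. A promoter is the stretch from 1 kb before to 1 kb after any start site that GENCODE gives for a gene. Srsf1, Mus81, Ddx5 and Ddx39b had the highest mean score percentiles (96.2, 90.1, 87.0 and 81.8) among the promoter peaks found at one place in all 4 lists. For each of them, up to 300 bases of the stretch common to the 4 lists are given in the direction of transcription, from its longest part outside exons that are not coding. Where this part was longer, its window with the most bases in predicted G4s was taken, so that G4s elsewhere under the peak are not shown. Capitals mark stretches with a G4Hunter score of at least 1.5 in absolute value over 25 bases, which are rich in G where the G4 would form on the coding strand and rich in C where it would form on the template strand. The windows lie at chr11:88048175-88048474 (Srsf1, plus strand), chr19:5484559-5484858 (Mus81, minus strand), chr11:106789384-106789683 (Ddx5, minus strand) and chr17:35244378-35244677 (Ddx39b, plus strand).
Srsf1: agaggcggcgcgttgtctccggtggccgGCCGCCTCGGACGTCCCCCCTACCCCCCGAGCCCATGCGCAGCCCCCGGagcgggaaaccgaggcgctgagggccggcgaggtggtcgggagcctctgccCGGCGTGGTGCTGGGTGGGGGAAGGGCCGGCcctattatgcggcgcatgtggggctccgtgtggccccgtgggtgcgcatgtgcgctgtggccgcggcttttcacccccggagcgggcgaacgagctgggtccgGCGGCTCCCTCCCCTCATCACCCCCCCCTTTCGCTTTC
Mus81: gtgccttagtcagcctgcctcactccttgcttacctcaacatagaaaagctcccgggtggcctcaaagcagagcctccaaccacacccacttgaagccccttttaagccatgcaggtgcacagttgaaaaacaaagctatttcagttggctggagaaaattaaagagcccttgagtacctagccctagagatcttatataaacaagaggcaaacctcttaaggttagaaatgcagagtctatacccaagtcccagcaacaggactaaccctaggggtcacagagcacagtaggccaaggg
Ddx5: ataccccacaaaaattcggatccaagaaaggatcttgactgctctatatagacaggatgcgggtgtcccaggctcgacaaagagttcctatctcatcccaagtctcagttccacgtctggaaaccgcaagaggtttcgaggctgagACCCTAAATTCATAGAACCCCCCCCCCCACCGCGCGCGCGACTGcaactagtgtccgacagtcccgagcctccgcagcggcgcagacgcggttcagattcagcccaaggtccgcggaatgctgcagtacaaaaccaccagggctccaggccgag
Ddx39b: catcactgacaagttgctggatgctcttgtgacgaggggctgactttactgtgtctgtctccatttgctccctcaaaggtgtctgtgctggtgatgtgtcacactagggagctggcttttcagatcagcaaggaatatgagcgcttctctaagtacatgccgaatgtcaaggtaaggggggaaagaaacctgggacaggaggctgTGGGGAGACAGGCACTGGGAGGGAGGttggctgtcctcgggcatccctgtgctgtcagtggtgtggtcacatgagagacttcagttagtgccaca
The Srsf1 window was 74.3% G and C and held 1 predicted G4 on the coding strand and 2 on the template strand. The Mus81 window held none, the Ddx5 window held 1 on the template strand and the Ddx39b window held 1 on the coding strand. The whole peaks held more, 7 in each list at Srsf1, 2, 2, 2 and 3 at Mus81, 5, 5, 9 and 9 at Ddx5, and 5, 8, 8 and 8 at Ddx39b. The centre of the Ddx39b window lay 1860 bp past the nearest start site, in the part of the peak that reaches beyond the promoter.

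For Rtel1, the part of each peak outside non-coding exons is given, because no GFP list had a peak there. These parts lie on the plus strand at chr2:181337947-181338078 (Cre mock, the whole peak), chr2:181338882-181339055 (Cre mock) and chr2:181349463-181349709 (Cre DOX).
Rtel1 peak with score 14, Cre mock: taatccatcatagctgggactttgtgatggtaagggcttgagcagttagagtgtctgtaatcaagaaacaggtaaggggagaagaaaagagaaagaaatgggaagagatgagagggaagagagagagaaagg
Rtel1 peak with score 21, Cre mock: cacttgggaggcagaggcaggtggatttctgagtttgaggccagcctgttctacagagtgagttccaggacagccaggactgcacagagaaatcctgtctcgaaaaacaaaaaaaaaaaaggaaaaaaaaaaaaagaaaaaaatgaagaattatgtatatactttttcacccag
Rtel1 peak with score 10, Cre DOX: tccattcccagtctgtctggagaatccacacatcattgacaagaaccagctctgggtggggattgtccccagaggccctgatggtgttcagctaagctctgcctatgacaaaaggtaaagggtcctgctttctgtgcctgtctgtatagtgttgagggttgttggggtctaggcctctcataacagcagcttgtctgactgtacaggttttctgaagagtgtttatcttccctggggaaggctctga
None of the 3 Rtel1 peaks held a predicted G4. Purines made up 75.0% of the bases of the first one, and 88.5% of the second stretch was repeat-masked.

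More of the 37 genes had a peak in the Cre mock list than in the others, although with 5 kb in place of 1 kb on each side both Cre lists had 30. At least 1 peak over the gene or its 1 kb flanks was found in GFP cells for 25 members in mock (background, 55.0% of protein-coding genes) and 21 with DOX (46.0%), and in Cre cells for 30 in mock (60.4%) and 28 with DOX (54.1%). As shares of the members these were 67.6%, 56.8%, 81.1% and 75.7%, above the background in every list. The members were long, with a median of 36.9 kb against 17.4 kb for protein-coding genes, and longer genes had peaks more often, in GFP mock 27.7% of protein-coding genes of up to 5.26 kb and 87.5% of those of over 58.1 kb. Per Mb of gene, members held 27.1, 19.8, 46.8 and 37.5 peaks, against 32.9, 25.3, 43.0 and 35.1 for protein-coding genes, so that the members were below the background in both GFP lists and above it in both Cre lists. In peaks per Mb the order of the 4 lists was the same in members and background.

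A promoter peak was found in GFP cells for 15 members in mock (background 30.8%) and 18 with DOX (25.8%), and in Cre cells for 20 in mock (36.7%) and 20 with DOX (27.6%). The members' shares were 40.5%, 48.6%, 54.1% and 54.1%. Members had a median of 7 start sites against 3 for protein-coding genes, which gives them more promoter to overlap. Counting the first start of each gene and no other, 12, 13, 14 and 13 members had a promoter peak, against 23.3%, 19.6%, 28.0% and 20.1% of protein-coding genes.

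Top-decile peaks over the members were most numerous in the Cre mock list, as they were over protein-coding genes. A top-decile promoter peak was found for 1 member in GFP mock (background 4.38%), namely Srsf1, and for 3 in GFP DOX (3.84%), namely Srsf1, Slx4 and Mus81. In Cre mock 7 members had one (6.70%), namely Srsf1, Slx4, Mus81, Dhx9, Dhx36, Ddx5 and Ddx39b. In Cre DOX 3 members had one (3.13%), namely Srsf1, Mus81 and Rnaseh2c. The 7 members of Cre mock were 18.9% of the 37 (exact 95% interval 7.96 to 35.2). Counting only peaks that overlapped no promoter of another gene, 4 members were left in Cre mock, namely Slx4, Mus81, Dhx9 and Dhx36. Such a peak can still lie over the body of another gene. The GFP DOX peaks of Slx4 (28) and Mus81 (32) scored below the limit of 33 in GFP mock. Over the gene or its 1 kb flanks, a top-decile peak was found in GFP cells for 2 members in mock (13.1%) and 4 with DOX (9.92%), and in Cre cells for 9 in mock (16.7%) and 5 with DOX (9.91%). The additional members here were Brip1 for GFP mock and Fancd2 for GFP DOX, with Ddx21 and Thoc1 for Cre mock and Ddx39b and Thoc2 for Cre DOX. The exact 95% intervals of the GFP mock share (0.66% to 18.2%) and the Cre mock share (11.8% to 41.2%) both held their background.

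**Figure D1:**
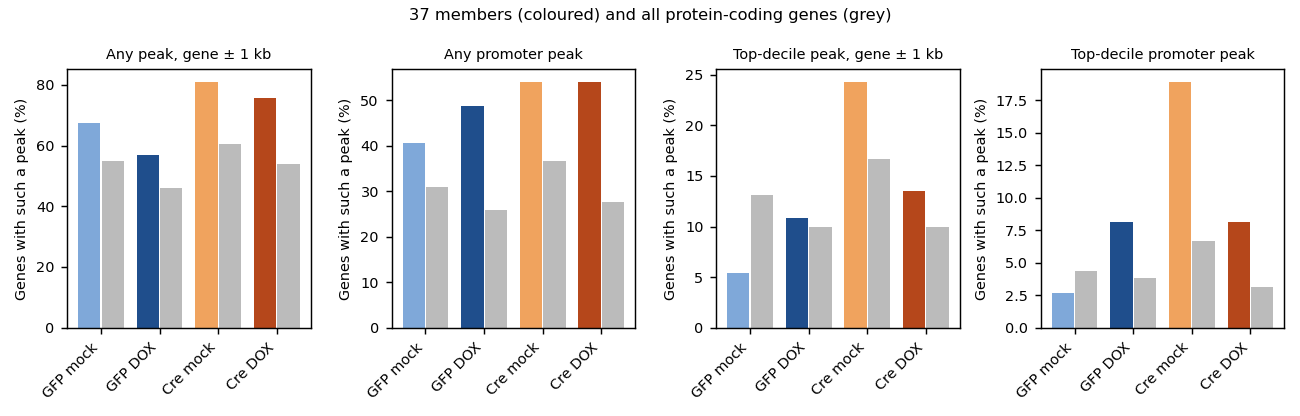
Share of genes with a peak (%, vertical axes) in each of the 4 lists, under 4 ways of counting, for the 37 members (coloured bars) and for all protein-coding genes (grey bars), each from 1 library per condition and so with no error bar. The Cre mock bar for top-decile promoter peaks stands at 18.9% (7 members) against 6.70%, while the GFP mock bar lies below its grey neighbour. With peaks over no promoter of another gene the 7 members became 4, and the 6.70% was not recounted in that way.

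Promoter peaks in all 4 lists were found for 12 members (background 13.5%), namely Dhx9, Dhx36, Ddx5, Ddx39b, Wrn, Atrx, Tdrd3, Srsf1, Poldip3, Slx4, Mus81 and Rnaseh2c. No promoter peak in any list was found for 10 members (49.6%), namely Aqr, Ddx1, Blm, Pif1, Fancm, Thoc5, Rad52, Ercc4, Rnaseh1 and Rnaseh2b. A promoter peak in GFP mock alone was found for Xrn2 (4.65%), in GFP DOX alone for Ercc5 (1.90%), in Cre mock alone for Dna2 and Top3b (6.44%), and in Cre DOX alone for Brca1, Brca2, Fancd2 and Thoc2 (3.34%). Counting the whole gene, 17 members had a peak in all 4 lists (33.5%) and 4 had one in no list (26.1%), namely Rnaseh1, Rnaseh2b, Fancm and Ercc4.

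**Figure D2:**
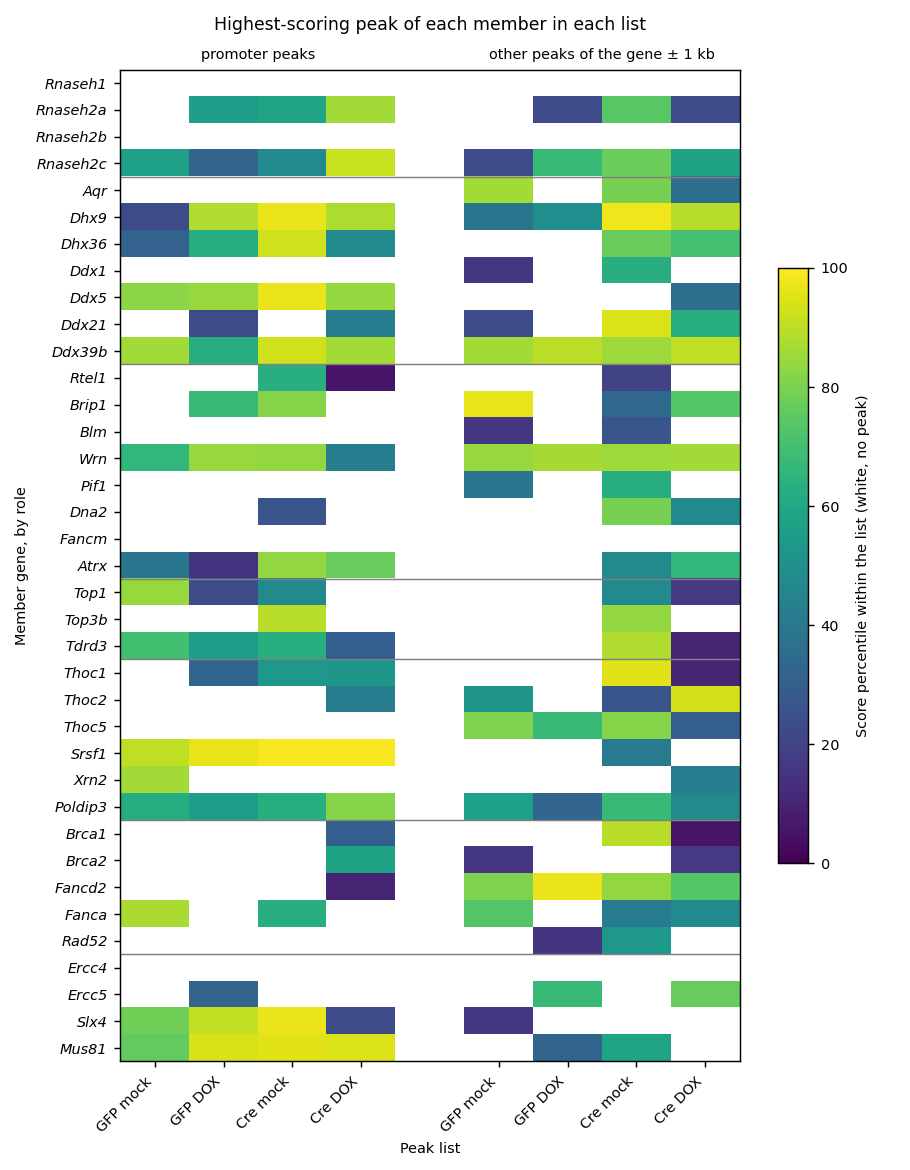
Score percentile within its list (colour, %) of the highest-scoring promoter peak (left block) and of the highest-scoring other peak of the gene and 1 kb around it (right block), for the 37 members (rows, grouped by role) in the 4 lists (columns). White marks no peak. The Srsf1 row is bright in all 4 promoter columns, and the rows of Rnaseh1, Rnaseh2b, Fancm and Ercc4 are empty.

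Of the 4 RNase H genes, 2 had no peak in any list (background 26.1%). Rnaseh1 encodes the enzyme whose human form was the transgene, and Rnaseh2b encodes a structural subunit of the trimeric RNase H2. Rnaseh2c, another structural subunit, had its highest-scoring peaks at 19 in each GFP list, 25 in Cre mock and 32 in Cre DOX. Its promoter peak at the first start scored 19, 14, 18 and 32 in the same order, and the Cre DOX peak was the one in the top decile, at a percentile of 91.6. In both Cre lists that promoter peak also overlapped the neighbouring gene Kat5. Rnaseh2a, the catalytic subunit, had no peak in GFP mock and highest scores of 17, 24 and 28 in the other lists, all below the top decile.

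The 7 RNA helicase genes all had a peak in both mock lists, beside backgrounds of 55.0% and 60.4%. Dhx9, whose product unwinds RNA and hybrids, had a promoter peak that scored 14 (mock) and 26 (DOX) in GFP cells and 48 (mock) and 29 (DOX) in Cre cells. In GFP mock this peak was 513 bp wide, while in the other lists it was 5239, 5332 and 5577 bp wide with upstream ends at -3623 to -3626 bp from the first start. The peak at the end of Dhx9 scored 16, 16, 54 and 30, so that both ends of the gene were highest in Cre mock, at percentiles of 96.8 and 97.7.

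Ddx5, a helicase and transcriptional coactivator, had highest scores of 27, 24, 47 and 27. In GFP mock its promoter region was covered by 3 separate peaks, in GFP DOX by 2, and in each Cre list by a single peak of 3747 bp (Cre mock) or 3693 bp (Cre DOX). In all 4 lists the peak over the first start also overlapped Cep95. The Cre lists had a further peak over the second part of the gene, with scores of 29 and 26, that neither GFP list had. Ddx39b, the helicase of mRNA export also known as UAP56, scored at most 29, 18, 36 and 28 at its promoter, and a peak at its end scored 29, 27, 29 and 28 there, nearly level across the lists. Dhx36, a G4 helicase of DNA and RNA, scored at most 15, 18, 36 and 17 at its promoter, and the Cre mock peak was the one in the top decile, at a percentile of 92.6.

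The other 3 RNA helicase genes had no promoter peak in either mock list. Ddx21, a nucleolar helicase, had its highest score of 40 in an intron in Cre mock, against at most 14 (mock) and 13 (DOX) in GFP cells and 20 in Cre DOX. Aqr, the intron-binding helicase aquarius, had scores of at most 29, 26 and 15 in GFP mock, Cre mock and Cre DOX and no peak in GFP DOX. Ddx1 had 1 peak in GFP mock and 2 in Cre mock, with scores of at most 13 and 21, and no peak in either doxycycline list.

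Among the 8 DNA helicase and translocase genes, Wrn and Atrx had promoter peaks in all 4 lists. Wrn, the Werner syndrome helicase, scored at most 21 (mock) and 24 (DOX) in GFP cells and 28 (mock) and 16 (DOX) in Cre cells at its promoter, none in the top decile. It also had an intronic locus with peaks in all 4 lists that scored at most 28, 25, 29 and 28 and lay almost wholly in repeat-masked sequence. Atrx, a chromatin remodeller that acts at G4-prone repeats, had promoter scores of at most 16, 12, 28 and 24, but no stretch near a start site had a peak in all 4 lists. Near the first start, the GFP mock peak of score 14 and the Cre mock peak of score 28 overlapped. Brip1, the helicase FANCJ, which unwinds G4s, had the highest score of any member in GFP mock, 46, in an intronic peak of 131 bp that no other list had. Its wide promoter peak was called in GFP DOX (score 19) and Cre mock (score 27) and in neither GFP mock nor Cre DOX.

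Dna2, a nuclease and helicase, had 4 peaks in Cre mock with scores of at most 26, 2 in Cre DOX with scores of at most 17, and none in the GFP lists. Blm, the Bloom syndrome helicase, scored at most 13 in GFP mock and 15 in Cre mock, and Pif1, a G4 helicase, 16 and 21, and neither had a peak after doxycycline. Fancm, a translocase of the Fanconi pathway, had no peak in any list. Over the whole gene, 3.86% of protein-coding genes had peaks in both mock lists and in neither doxycycline list, as Blm, Pif1 and Ddx1 did.

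Top1, the topoisomerase that relaxes supercoils by single-strand breaks, had promoter scores of at most 28 (mock) and 13 (DOX) in GFP cells and 18 in Cre mock, and no promoter peak in Cre DOX. Top3b, a topoisomerase of DNA and RNA, had 4 peaks, all in Cre mock, with a highest score of 32 at a score percentile of 89.3, just below the top decile. Tdrd3, its scaffold partner, scored at most 22, 17, 21 and 14 at the promoter. The Tdrd3 promoter peaks shared no base that was covered in all 4 lists.

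Srsf1, a splicing factor that binds nascent RNA, had the highest score of any member in Cre mock and in Cre DOX. Its promoter peak scored 33 (mock) and 39 (DOX) in GFP cells and 79 (mock) and 53 (DOX) in Cre cells, with fold enrichments over the local background of 4.45, 4.80, 6.26 and 4.56. It was 2537, 2603, 3488 and 3588 bp wide, lay in the top decile of each of the 4 lists and overlapped 2 neighbouring transcripts, 2010015M23Rik and Gm11508, from which it cannot be separated because peaks carry no strand. Of protein-coding genes 0.524% had a top-decile promoter peak in all 4 lists. The score percentiles in the Cre lists were 99.0 (mock) and 98.9 (DOX), against 90.5 in GFP mock and 96.6 in GFP DOX.

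The other genes of mRNA packaging, export and termination were less uniform. Poldip3, an export adaptor, had promoter scores of at most 20, 17, 21 and 26, none in the top decile. Xrn2, the exonuclease that ends transcription, had a promoter peak in GFP mock alone, 110 bp wide with a score of 29, and an intronic peak of score 16 in Cre DOX. Thoc1 and Thoc2, subunits of the THO complex, each had a top-decile intronic peak in a single list, with scores of 41 in Cre mock and 34 in Cre DOX. Thoc5, another THO subunit, had peaks in all 4 lists, with highest scores of 26, 19, 27 and 14, none of them at a promoter.

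The 5 Fanconi and homologous recombination genes had 1, 0, 1 and 3 members with a promoter peak, beside backgrounds of 30.8%, 25.8%, 36.7% and 27.6%. Fancd2, the ubiquitinated subunit of the Fanconi pathway, had an intronic peak at the same place in 3 lists, with scores of 26 (mock) and 42 (DOX) in GFP cells and 28 in Cre mock, and a promoter peak of score 11 in Cre DOX. The GFP DOX score of 42 was the highest of any member in that list. Brca1, the recombination protein and ubiquitin ligase, had no peak in the GFP lists and highest scores of 32 in Cre mock, at the gene end, and 14 in Cre DOX. Brca2, a recombination protein, scored at most 13 in GFP mock and 19 in Cre DOX. Fanca, a Fanconi core subunit, scored at most 30, 21 and 17 in GFP mock, Cre mock and Cre DOX, and Rad52 12 in GFP DOX and 19 in Cre mock.

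Among the structure-specific nuclease genes, Mus81 and Slx4 were in the top decile in more than 1 list. Mus81, which cuts branched DNA, had a peak over internal start sites that scored 24, 32, 43 and 36 and was 3523, 3981, 4008 and 4537 bp wide. The Cre lists had a second wide peak upstream of Mus81, with scores of 38 and 33, that also covered Cfl1 and Snx32. Slx4, a scaffold for several nucleases, had highest scores of 25, 28, 50 and 13, but the Cre mock value came from a peak of 137 bp that overlapped no peak of the other lists. At the stretch with peaks in both GFP lists and Cre mock, these scored 25, 28 and 19, and Cre DOX had no peak there. No stretch of Slx4 had a peak in all 4 lists. Ercc5, the endonuclease XPG, had peaks in both doxycycline lists, with scores of at most 19 and 24, and none in the mock lists. Ercc4, which encodes XPF, had none.

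**Figure D3:**
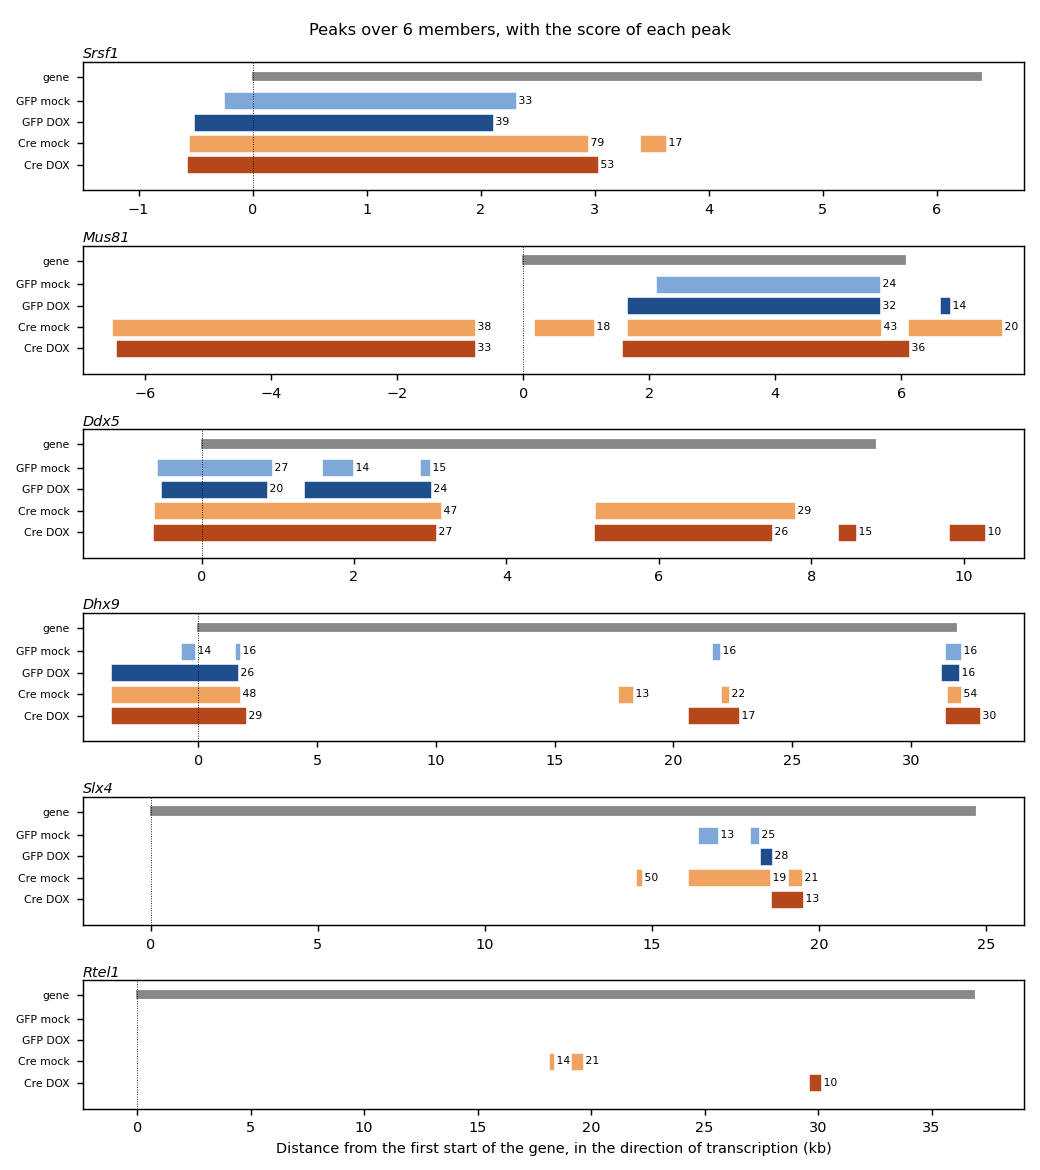
Peaks over Srsf1, Mus81, Ddx5, Dhx9, Slx4 and Rtel1 (coloured bars, a row for each list, with the score of each peak beside it), by distance in kb from the first start of the gene in the direction of transcription. The grey bar is the gene. Srsf1 scores run 33, 39, 79 and 53 from top to bottom, and the GFP rows of Rtel1 are empty.

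The same stretches were followed across lists by merging the overlapping peaks of the 4 lists over each member into loci. There were 150 loci over the members, of which 110 were found in 1 list (73.3%, background 70.0%) and 15 in all 4 lists (10.0%, background 7.30%). At those 15 loci the Cre mock peak had the highest score percentile of the 4 lists at 9 loci (60.0%, background 30.7%). These were the promoters of Srsf1, Mus81, Ddx5, Ddx39b, Dhx9, Dhx36 and Poldip3 and the ends of Dhx9 and Rnaseh2c. Cre mock was above GFP mock in score percentile at 12 loci (80.0%, background 62.2%) and covered more bases at 12 loci (80.0%, background 71.8%). The 3 loci where its score percentile was lower were the end of Ddx39b, the promoter of Rnaseh2c and that of Tdrd3, and it covered fewer bases at the promoter of Tdrd3, the intron of Wrn and the end of Dhx9.

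Against its mock list, GFP DOX was higher in score percentile at 11 of the 15 loci (73.3%, background 53.9%), and Cre DOX was higher at 4 (26.7%, background 47.1%). The 4 loci that were higher in Cre DOX were the promoter of Rnaseh2c, the coding exon and end of Ddx39b, and the intron of Wrn. Both comparisons use neighbouring loci of the same libraries, with several loci from 1 gene, and were not tested. The spread between lists was wide at the promoter of Rnaseh2c, from a percentile of 32.5 in GFP DOX to 91.6 in Cre DOX, and at that of Dhx36, from 31.3 in GFP mock to 92.6 in Cre mock. It was narrow at the end of Ddx39b, from 85.3 in Cre mock to 89.5 in GFP DOX.

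**Figure D4:**
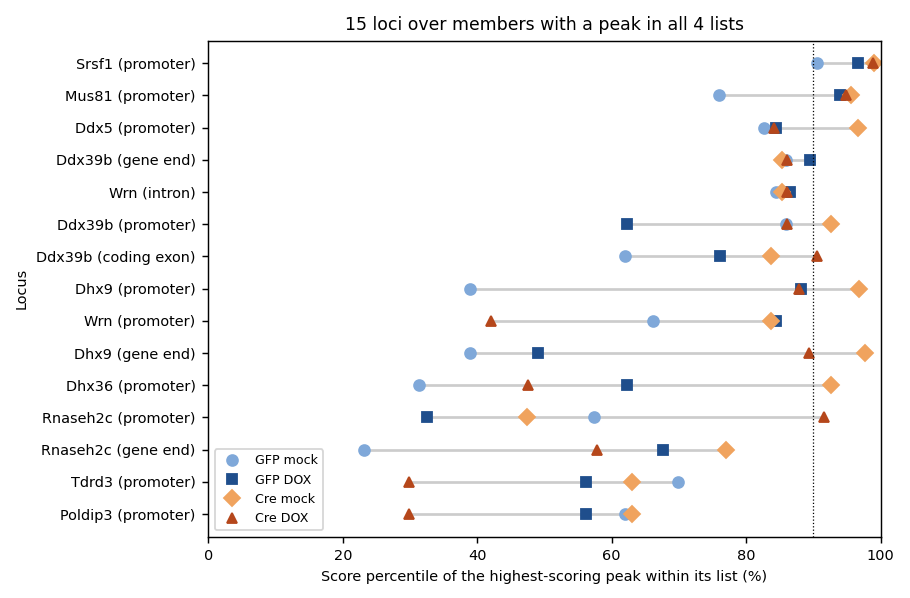
Score percentile within its list (%, horizontal axis) of the highest-scoring peak at each of the 15 loci over members that had a peak in all 4 lists, with 1 point per list and a dotted line at the 90th percentile. The Cre mock diamonds lie furthest right at 9 loci, and Srsf1 is the locus with all 4 points beyond the line.

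Fewer of the GFP mock peaks over members were missing from GFP DOX, and from Cre mock, than over genes at large. Member peaks had median widths of 353, 576.5, 377.5 and 457.5 bp in the 4 lists, against 285, 343, 349 and 466 bp over protein-coding genes. A wider peak has more bases with which to overlap, and the part of width in these shares was not tested. Of 52 GFP mock peaks over members, 27 had no overlapping peak in GFP DOX (51.9%, exact 95% interval 37.6 to 66.0), against 69.8% over protein-coding genes. Of 90 Cre mock peaks, 56 had none in Cre DOX (62.2%, 51.4 to 72.2), against 65.3%. In the opposite direction, 17 of 38 GFP DOX peaks were not in GFP mock (44.7%, 28.6 to 61.7), against 61.7%, and 40 of 72 Cre DOX peaks were not in Cre mock (55.6%, 43.4 to 67.3), against 59.7%. Peaks came and went in both directions, so that a peak missing after doxycycline is not by itself a loss.

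Between the mock lists, 22 of 52 GFP mock peaks had no overlap in Cre mock (42.3%, 28.7 to 56.8, background 59.8%), and 65 of 90 Cre mock peaks had none in GFP mock (72.2%, 61.8 to 81.1, background 71.0%). Between the doxycycline lists, 14 of 38 GFP DOX peaks were not in Cre DOX (36.8%, 21.8 to 54.0, background 52.7%) and 49 of 72 Cre DOX peaks were not in GFP DOX (68.1%, 56.0 to 78.6, background 69.5%). The background lay above the interval of both GFP mock shares, at the upper edge of the interval or inside it for GFP DOX, and inside it for the Cre lists. The intervals cover counting error only, and peaks of 1 gene are not independent.

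**Figure D5:**
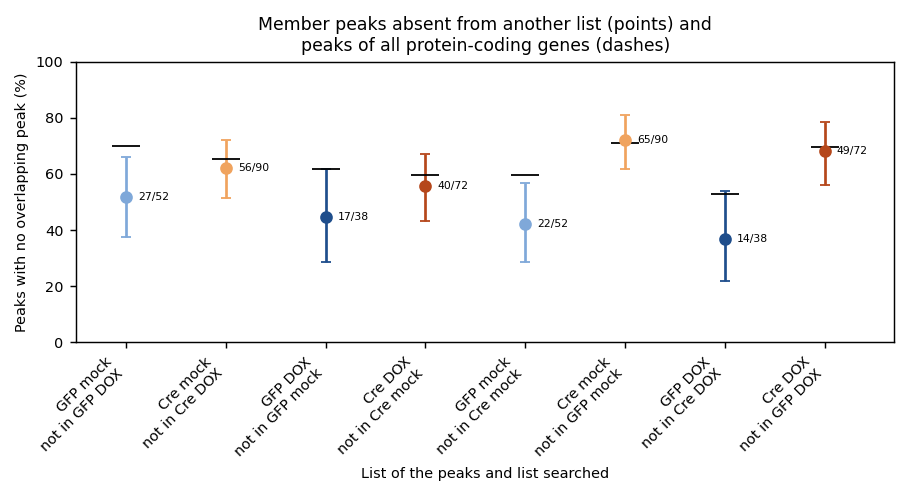
Share of the peaks over members of a list that had no overlapping peak in a second list (%, points with exact 95% binomial intervals, number of peaks beside each), and the same share for peaks over all protein-coding genes (dashes). The GFP mock points, 51.9% and 42.3%, lie below their dashes, and the Cre mock points lie near theirs.

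Peaks were also sorted by their place in the gene, and a peak near any start site was counted at the promoter before the intron, so that the members' median of 7 start sites against 3 bears on both shares. Promoter peaks made up 44.2%, 55.3%, 34.4% and 36.1% of the member peaks of the 4 lists, against 25.8%, 30.4%, 27.3% and 22.6% over protein-coding genes. Intronic peaks made up 36.5%, 21.1%, 40.0% and 40.3%, against 61.2%, 53.7%, 55.2% and 64.2%. The part of the start sites in these shares was not tested. A predicted G4 was found in 36.5%, 50.0%, 35.6% and 45.8% of the member peaks in the same order, against 34.3%, 34.6%, 35.6% and 33.1%. More than 50% of the peak was repeat-masked in 23.1%, 15.8%, 23.3% and 31.9% of the member peaks, against 38.9%, 33.0%, 28.3% and 48.1%.

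The promoters of the members had a median GC content of 51.0%, near the 51.2% of protein-coding genes, but a higher CpG ratio, with an observed-to-expected median of 0.680 against 0.475. A predicted G4 lay within 1 kb of the first start in 34 of 37 members (91.9%, background 84.1%). It was on the coding strand in 30 members (81.1%, background 70.5%) and on the template strand in 18 (48.6%, background 64.3%). G exceeded C on the coding strand downstream of the start in 30 members (81.1%, background 68.5%). These are features of the reference sequence, chosen by no peak. Coding-strand G4s were found in 17 of 19 members with a promoter peak in 2 or more lists (89.5%, background 85.6%) and in 13 of the other 18 (72.2%, background 62.8%). Template-strand G4s were found in 11 of the 19 (57.9%, background 79.6%) and in 7 of the 18 (38.9%, background 56.4%). These G4s were searched around the first start, while a promoter peak may lie at any start site, as the Rtel1 peaks do. A G4 and a peak counted for a gene need not lie at the same place.

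A second list of 36 genes of the same pathways that are not among the 37 was counted in the same way. A promoter peak was found for 16, 14, 21 and 20 of them, in the order used above (background 30.8%, 25.8%, 36.7% and 27.6%). Promoter peaks in all 4 lists were found for 9, namely Recql, Rmi1, Thoc6, Thoc7, Alyref, Srsf2, Fance, Ercc1 and Cnbp (background 13.5%), and in no list for 7 (background 49.6%). A top-decile peak was found for 2, 3, 5 and 3 of the 36 at promoters (background 4.38%, 3.84%, 6.70% and 3.13%) and for 2, 6, 9 and 6 over the gene or its 1 kb flanks (background 13.1%, 9.92%, 16.7% and 9.91%), with Cre mock highest in both. Rmi1, a partner of the Bloom helicase, was in the top decile in all 4 lists, as Srsf1 was among the 37.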

How the data were processed

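The authors digested genomic DNA with XbaI, SspI, BsrGI, HindIII and EcoRI, captured hybrids with S9.6, pooled 3 immunoprecipitations per condition, sonicated, and sequenced 1 library per pool. They ran nf-core/chipseq, with alignment by BWA to mm10 and MACS2 peak calling for each library, and deposited broad peaks, although the command they give has the narrow-peak option. Whether inputs served as control is not stated, so part of the effect of mappability and copy number may remain. The deposited values are a score, a fold enrichment (ratio of signal to local background) and the −log10 p-value and −log10 q-value, averaged over a broad peak and not normalised between libraries. Broad calling widens peaks, and so raises overlaps. Library depth is unknown.

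All peaks of the lists were used, without a further filter, and laid over GENCODE M21 genes with Python 3.11.15, pandas 2.3.3 and NumPy 2.4.6. The top decile was the best-scoring 10% of a list (percentile 90), ties kept. Intervals are exact binomial (SciPy 1.17.1) at 95% and cover counting error only. Overlap and G4 searches were tested on simulated data. Sequence came from the GRCm38.p6 reference. Members were named individually if they were Rtel1 or Rnaseh1, had a top-decile promoter peak in any list, promoter peaks in all 4 lists or in 1 mock list alone, or no peak at all, or had the highest-scoring peak of their role, and the others were added after their values were seen. The 37 members, the second pathway list and the markers were chosen with earlier results of these data known.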

Additional observations from a re-analysis of the deposited data

Results flagged for a closer look

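The number of members with a top-decile promoter peak moved in opposite directions with doxycycline in GFP and Cre cells. The change was 2 in GFP cells, from 1 to 3, and -4 in Cre cells, from 7 to 3, a difference of -6. Anywhere in the gene or within 1 kb, the change was 2 in GFP cells, from 2 to 4, and -4 in Cre cells, from 9 to 5, again a difference of -6. Each value rests on 1 library per condition, and the difference was not tested. Counting the first start of each gene alone, the promoter count was 1 in both GFP lists, a change of 0, and 6 and 3 in the Cre lists. The limit of the top decile was a score of 33 in GFP mock and 28 in GFP DOX, and the GFP DOX peaks of Slx4 (28) and Mus81 (32) lay below the first of these. Their score percentiles were higher in GFP DOX than in GFP mock, 90.7 against 78.5 at Slx4 and 93.9 against 76.0 at Mus81. Over the gene, the GFP DOX peak of Fancd2 scored 42, above both limits. The part of the lower limit in the rise in GFP cells was not tested. The members behind the promoter counts were Slx4 and Mus81, gained in GFP DOX, and Dhx9, Dhx36, Ddx5, Ddx39b and Slx4, which were in the top decile at their promoters in Cre mock and not in Cre DOX, where Rnaseh2c was gained. Over protein-coding genes, top-decile promoter peaks went from 4.38% to 3.84% with doxycycline in GFP cells and from 6.70% to 3.13% in Cre cells.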

How the results depend on the processing

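Cre mock had more members with a peak than GFP mock under every alternative run for these counts, 10 for peaks over the gene, 11 for promoter peaks, 7 for top-decile peaks over the gene and 8 for top-decile promoter peaks. Protein-coding genes went the same way under the main settings, in the same order 60.4% against 55.0%, 36.7% against 30.8%, 16.7% against 13.1% and 6.70% against 4.38%. Their shares were not recounted in this section, and all alternatives reuse the same libraries. Of 304 recomputed counts, differences and shares that answer a comparison, 241 were taken as unchanged, 60 moved and 3 reversed. A count was taken as unchanged if it stayed close, and a share if it stayed inside its interval. A difference needed only to keep its sign, whatever its size. The reversals concern GFP DOX against GFP mock. With peaks over the gene the difference of -4 became 2 with top-decile peaks alone and 1 with equal numbers of peaks per list, and with promoter peaks the difference of 3 became -5 with peaks of a −log10 q-value of 2 or more. The cause was not tested.

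With that q-value, members with a peak over the gene fell to 15 (mock) and 8 (DOX) in GFP cells and 16 in Cre DOX, those with a promoter peak to 6 in GFP DOX and 9 in Cre DOX (7 fewer than in Cre mock, a difference of -7), promoter peaks in all 4 lists to 3 members and in none rose to 18. With that limit at 5, the gene counts were 0, 0, 3 and 1 and the promoter counts 0, 0, 2 and 1 in the order of the report, so that GFP DOX and GFP mock differed by 0 and the Cre lists by -2 over the gene and -1 at promoters, with promoter peaks in all 4 lists for 0 members and in none for 35, and 100% of 3 Cre mock peaks were not in GFP mock. With top-decile peaks alone, the gene counts were 2, 4, 9 and 5 and the promoter counts 1, 3, 7 and 3 (Cre DOX minus Cre mock, -4), with 1 member in all 4 lists and 29 in none, and of 11 Cre mock peaks 72.7% were not in Cre DOX and 90.9% not in GFP mock. With equal numbers of highest-scoring peaks, 12 members had a promoter peak in Cre DOX (a difference of -7 from Cre mock) and 7 in all 4 lists, and top-decile counts became 0 at promoters and 1 over the gene in GFP mock and 2 over the gene in Cre DOX.

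With peaks over no promoter of another gene, 12 members had a promoter peak in Cre DOX (a difference of -3), 6 in all 4 lists and 16 in none. Top-decile promoter counts then fell to 0 in GFP mock, 4 in Cre mock and 1 in Cre DOX. With peaks over no other gene at all, top-decile gene counts fell to 1 in GFP mock and 2 in Cre DOX. With the first start alone, 13 members had a promoter peak in Cre DOX (a difference of -1) and 19 in no list, and the top-decile count in GFP DOX was 1, a difference of 0 from GFP mock. The difference of 0 in promoter peaks between Cre DOX and Cre mock became 2 with promoters of 2 kb, 1 with the midpoint rule and -2 with peaks mostly outside repeats. Over the gene, the difference between these lists became 0 with 5 kb on each side. It kept its sign but grew with peaks of a −log10 q-value of 2 or more. Where 50% of a peak had to be covered, 87.8% of Cre mock peaks were not in GFP mock. Of 121 recomputed values of other kinds, 52 moved. The share of loci with the highest percentile in Cre mock, 60.0%, was 66.7% by fold enrichment, 50.0% over the 8 loci that overlapped no other gene and 70.0% over the 10 promoter loci, settings chosen after seeing the data.

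No paired analysis was possible because each condition had 1 library and all carried the same replicate number, and for the same reason leaving out a replicate was not run.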
